A study of Glycine max with 12 samples.

Results

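The genes described here are soybean leaf transcripts that were higher whenever water was withheld, with or without heat. They were selected on their measured normalized counts. A gene entered when its identifier began with LOC, the lowest of its 6 values in combined stress and water deficit was at least 20 and at least 1.5 times the highest of its 6 values in heat stress and control, and its lowest combined stress value was not 2 or more times its highest water deficit value. This gave 94 genes out of 55051 rows, of which 51799 have a LOC identifier. The difference between watered and water-limited libraries is therefore the way the genes were chosen and is given as a description, without a test.

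All libraries came from leaves of wild type Glycine max, cultivar Magellan (PI595362), grown in chambers and watered 3 times a week under control conditions. The groups were combined stress (drought and heat together), water deficit, heat stress and untreated control, with 3 libraries each. No transgene, clone or other agent is named for any group. The labels give neither the severity nor the length of the treatments, and they do not say whether libraries came from separate plants, so p-values measure the spread between these libraries, which may be technical in part.

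Plants that run short of water accumulate the hormone abscisic acid, which closes stomata and switches on genes for protective proteins, osmolyte synthesis and transport. Dehydrins and other late embryogenesis abundant proteins are the best known of these, and 8'-hydroxylases of the CYP707A family break the hormone down again. Heat adds a demand for water through transpiration while it calls on a different programme of chaperones. The LOC identifiers themselves carry no function: RefSeq (Glycine_max_v4.0) matched 90 of the 94 by symbol and 3 by gene ID, and lists 91 as protein coding and 2 as long non-coding RNA. The 3 matched by gene ID have names there. LOC100775264 is CHS13, a chalcone synthase, the enzyme that commits phenylpropanoids to flavonoids. LOC100305602 is GASA27, of a family of small cysteine-rich peptides named after gibberellin-stimulated genes. LOC100807165 is SPL9D, of the SQUAMOSA promoter-binding-like transcription factors.

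Depth ran between 26077068 and 46186226 recovered reads per library. The 9 leaf marker genes (small subunit of Rubisco, Rubisco activase, chlorophyll-binding and photosystem genes) were all detected in every library and summed to 363771 to 519317 normalized counts in combined stress, 445664 to 779829 in water deficit, against 359901 to 987718 in heat stress and 611062 to 1131390 in control. They did not go one way: the activase gene RCA03 averaged 7249 in combined stress against 103.1 in control, and RBCS-1 of the Rubisco small subunit 99091 against 284036. Of 20 markers of nodule and seed, 15 had no read in any library. Their sum was 235.3 to 398.1 in combined stress, 147.1 to 275.3 in water deficit, against 267.3 to 534.4 in heat stress and 349.0 to 633.8 in control, and it was nearly all NOD33 (130.3 to 615.0 over the 12 libraries). P34 was at 7.93 to 53.0, with a mean of 26.2 in combined stress and 15.2 in control. In whole leaves, fewer cells of a type and less RNA per cell cannot be told apart. One library of each heated group stood apart on LCL3, named for a clock gene. It was at 308.1 in combined stress library 1 and at 1863 and 2112 in libraries 2 and 3, and at 2013 in heat stress library 3 against 204.3 and 153.3 in heat stress libraries 1 and 2. The counts of calls in heat stress against control, and several group means that combined stress library 1 moves by over 1.5 times, are given with and without them.

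The 94 genes together took 0.221% to 0.422% of the signal of a combined stress library and 0.196% to 0.374% of a water deficit library, against 0.0371% to 0.0478% of a heat stress library and 0.0426% to 0.0527% of a control library. The gene with the most counts, LOC100799031, made up 12.8% to 39.96% of the 94-gene sum in the 12 libraries. For the median member, mean water deficit was 5.58 times mean control, and mean combined stress was 6.85 times mean heat stress. Both medians stay at these values when the 3 genes at or below 3 reads in every reference library of each ratio are set to their lower bound. The margin (lowest water-limited value over highest watered value) had a median of 1.90. It was at least 2 for 42 genes, at least 3 for 18, at least 5 for 6 and at least 10 for 2.

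**Figure D1:**
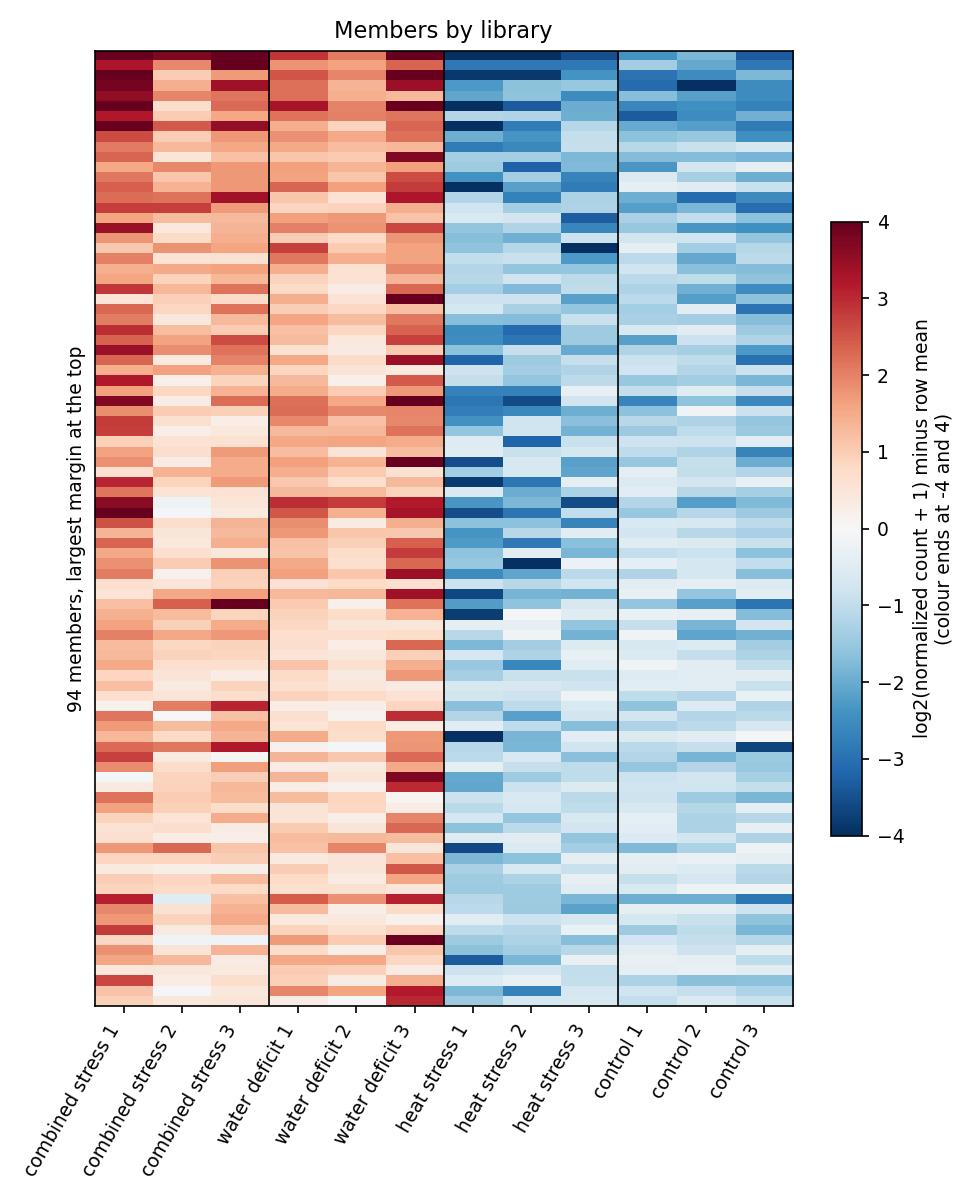
Each row is 1 of the 94 genes, ordered with the largest margin at the top, and each column 1 library; colour shows log2(normalized count + 1) minus the row's mean over the 12 libraries. The 6 libraries of combined stress and water deficit are higher than the 6 others in every row, as the selection demands, and combined stress library 1 and water deficit library 3 are the highest of their groups in 69 and 67 rows.

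The 4 genes with the largest margins had few reads in watered leaves. Counts are not per length, so levels are compared within a gene and not between genes. LOC100790115 had 1648, 689.3 and 1167 normalized counts in the 3 combined stress libraries and 375.1, 218.8 and 980.2 in water deficit, against 0, 0 and 3.6 in heat stress and 8.8, 13.7 and 4.2 in control. Its margin was 16.0, and every combined stress library but the second was above every water deficit library. LOC100792379 had 67.7, 26.5 and 112.9 in combined stress and 24.3, 21.1 and 35.5 in water deficit, against no read in heat stress and at most 1.8 (2 reads) in control. LOC100785785 also had at most 3 reads in each watered library, while it reached 779.8, 28.2 and 46.4 in combined stress and 82.1, 54.9 and 320.0 in water deficit. For that gene combined stress library 1 was far above the others, so its level in combined stress is carried by 1 library. LOC100815777 had 331.2, 63.0 and 243.3 in combined stress and 108.2, 59.5 and 250.8 in water deficit, against 3.8, 6.5 and 7.1 in heat stress and 1.8, 0 and 3.1 in control.

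LOC100809999 had 2435, 813.6 and 911.7 in combined stress and 964.8, 573.0 and 507.0 in water deficit, against 47.9, 67.8 and 35.7 in heat stress and 62.6, 45.0 and 35.6 in control. Its heat stress and control values overlapped. LOC100791989 spanned 647.9 to 11499 in combined stress and 1572 to 8071 in water deficit, against 18.9 to 100.01 in heat stress and 60.7 to 71.6 in control, so that its replicates under water limitation differed among themselves by up to 17.7-fold. LOC102664140 again had few reads in watered leaves (7 to 12 in heat stress and 2 to 6 in control). It was even in water deficit (123.2, 111.7 and 121.4) and less so in combined stress (256.1, 55.5 and 80.0), against 6.3 to 11.3 in heat stress and 1.8 to 6.3 in control. LOC100812834 had 3587, 858.3 and 1767 in combined stress and 428.3, 289.2 and 778.2 in water deficit, against 7.6, 21.4 and 69.7 in heat stress and 37.9, 32.8 and 20.9 in control, with every combined stress library above every water deficit library.

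**Figure D2:**
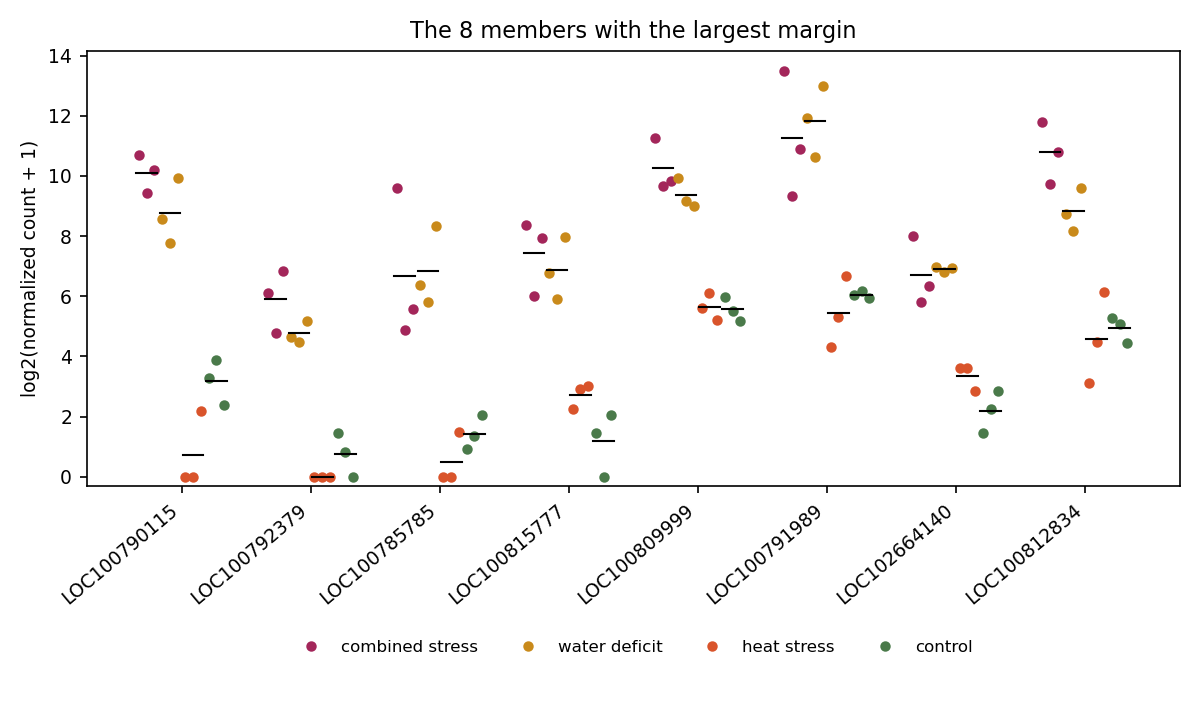
The 8 genes with the largest margin on a log2(normalized count + 1) axis, with a point per library, a bar at the mean of the 3 log2 values and groups in the order combined stress, water deficit, heat stress and control. Points of combined stress and water deficit lie above all watered points of the same gene, and their spread is wide for LOC100791989 (647.9 to 11499 in combined stress) and narrow for LOC102664140 in water deficit (111.7 to 123.2).

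Of the 8 genes with the most counts, 4 had a combined stress spread (highest over lowest library) of 1.17 to 1.77, where the median of the 94 was 2.13. LOC100799031 had 46016, 26945 and 31906 in combined stress and 31099, 25582 and 27331 in water deficit, against 1559, 1815 and 5693 in heat stress and 5016, 5903 and 6654 in control. Its heat stress libraries 1 and 2 were below every control library, and heat stress library 3 was not. LOC100306570 had 3472, 4008 and 3412 in combined stress and 2325, 1822 and 1666 in water deficit, against 718.8, 486.1 and 549.2 in heat stress and 741.0, 566.1 and 710.2 in control. Here the 3 combined stress libraries stood above the 3 water deficit libraries with a gap, while heat stress overlapped control. LOC100789855 averaged 5034 ± 1376 in combined stress and 3900 ± 503 in water deficit, against 1705 ± 101 in heat stress and 1848 ± 310 in control (SD, n = 3 each).

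Of the others with many counts, LOC106797152 averaged 3178 ± 1655 in combined stress and 3885 ± 1169 in water deficit, against 458.4 ± 161 in heat stress and 438.6 ± 65.2 in control (SD, n = 3 each). LOC100807235 ran from 878.2 to 7074 in combined stress and from 2255 to 4164 in water deficit, against 104.5 to 279.7 in heat stress and 117.1 to 225.5 in control. LOC100790344 averaged 2327 ± 636 in combined stress and 2525 ± 619 in water deficit, against 343.5 ± 348 in heat stress and 545.0 ± 102 in control (SD, n = 3 each), and its heat stress libraries were 142.5, 143.1 and 744.7. LOC100781448, with 21012, 4042 and 5349 in combined stress and 6321, 4112 and 8950 in water deficit, lay at 2321, 2658 and 1706 in heat stress and 1361, 1034 and 1062 in control. All of its heat stress libraries were above all of its control libraries, which put it just inside the threshold with a margin of 1.52.

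The threshold itself cut through a continuum. The other genes just inside were LOC100810724 (margin 1.51), LOC100810164 (1.52), LOC100799559 (1.53) and LOC100787380 (1.54). Just outside, with every other condition met, were LOC100815038 and LOC100815141 (1.499 and 1.495), LOC100789718 (1.49), LOC100780478 (1.49) and LOC100789996 (1.48). The clause on combined stress removed LOC100802855 and LOC100809388. The same rule applied to heat (combined stress and heat stress above water deficit and control) held 156 LOC genes, and the same margin downward (control and heat stress above water deficit and combined stress) held 63.

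Of the genes with a RefSeq name, CHS13 (LOC100775264) had 1032, 372.8 and 389.0 in combined stress and 1111, 700.2 and 789.7 in water deficit, against 128.6, 136.6 and 51.8 in heat stress and 124.2, 61.7 and 124.5 in control. GASA27 (LOC100305602) was among the most even under combined stress, at 1555, 1684 and 1778, with 1592, 889.7 and 2237 in water deficit, against 258.5, 193.3 and 198.2 in heat stress and 336.6, 182.1 and 173.6 in control. SPL9D (LOC100807165) had 776.5, 348.8 and 413.8 in combined stress and 410.6, 311.2 and 180.8 in water deficit, against 93.3, 111.5 and 80.4 in heat stress and 96.0, 64.0 and 48.1 in control. In all 3, combined stress overlapped water deficit and heat stress overlapped control. The 2 long non-coding RNAs differed in steadiness. LOC102667513 had 1598, 544.3 and 667.6 in combined stress, 224.9, 188.6 and 304.0 in water deficit, against 46.7, 77.1 and 35.7 in heat stress and 64.3, 57.9 and 29.3 in control, whereas LOC100804221 kept to 286.7 to 308.1 in combined stress and 234.0 to 261.3 in water deficit, against 60.5, 61.3 and 118.8 in heat stress and 109.2, 144.8 and 150.6 in control.

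Among the 3252 rows with a symbol in place of a LOC identifier, 10 met the same numeric conditions, and several of these names have a known role. They were chosen in the same way, so their values are a description. DEHYDRIN, a hydrophilic protein of drying tissues, had 28753, 3982 and 9348 normalized counts in combined stress and 1220, 137.3 and 7872 in water deficit, against 1.3, 13.9 and 17.0 in heat stress and 14.98, 7.6 and 26.1 in control. GMCYP707A1A, of the family that inactivates abscisic acid, had 78.5, 74.6 and 86.5 in combined stress and 85.8, 54.9 and 205.6 in water deficit, against 13.9, 22.3 and 14.3 in heat stress and 18.5, 14.5 and 13.6 in control. Both had watered values that overlapped between heat stress and control, but DEHYDRIN varied 57.3-fold among the water deficit libraries and GMCYP707A1A 3.74-fold.

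MAT1, for which RefSeq lists dehydrin as a synonym, had 2873, 357.1 and 480.3 in combined stress and 542.1, 246.2 and 549.5 in water deficit, against 15.1, 26.0 and 14.3 in heat stress and 21.1, 9.9 and 5.2 in control. Its combined stress mean of 1237 was 418.7 without library 1, and its water deficit mean of 446.0 was 394.2 without library 3. Combined stress was thus the lower only with its library 1 left out and all water deficit libraries kept. AS1 had 7589, 691.0 and 2260 in combined stress and 2605, 1099 and 4335 in water deficit, against 15.1, 145.9 and 77.7 in heat stress and 385.9, 92.2 and 124.5 in control. Its combined stress mean of 3513 was 1475 without library 1, below the water deficit mean of 2680 (1852 without water deficit library 3). ACS1 averaged 68.8 ± 5.72 in combined stress and 134.9 ± 76.8 in water deficit, against 17.6 ± 4.93 in heat stress and 11.8 ± 3.32 in control (SD, n = 3 each). ELIP, an early light-induced protein of the thylakoid, was nearly constant in water deficit (22088, 22288 and 21996) and higher and less even in combined stress (44688, 31127 and 24787), against 7425, 4797 and 3593 in heat stress and 8599, 7557 and 10866 in control.

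GMSWEET17, of the SWEET sugar transporters, had 101.6, 132.6 and 180.1 in combined stress and 191.3, 121.7 and 64.7 in water deficit, against 3.8, 0 and 0 in heat stress and 4.4, 11.4 and 0 in control. ANNEXIN, a calcium-dependent membrane-binding protein, had 6797, 1054 and 1842 in combined stress and 2242, 2196 and 3301 in water deficit, against 344.2, 513.9 and 581.3 in heat stress and 563.0, 320.8 and 464.4 in control. Its combined stress mean of 3231 was 1448 without library 1, below the water deficit mean of 2580 (2219 without water deficit library 3). GMMYB12, a MYB transcription factor, was low in all groups, at 33.97 to 110.7 in combined stress and 26.5 to 186.1 in water deficit against 13.0 to 17.0 in heat stress and 9.4 to 16.0 in control. MATE, a name used for multidrug and toxin extrusion transporters, averaged 1283 ± 307 in combined stress and 1754 ± 821 in water deficit, against 253.1 ± 82.8 in heat stress and 400.9 ± 76.1 in control (SD, n = 3 each).

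**Figure D3:**
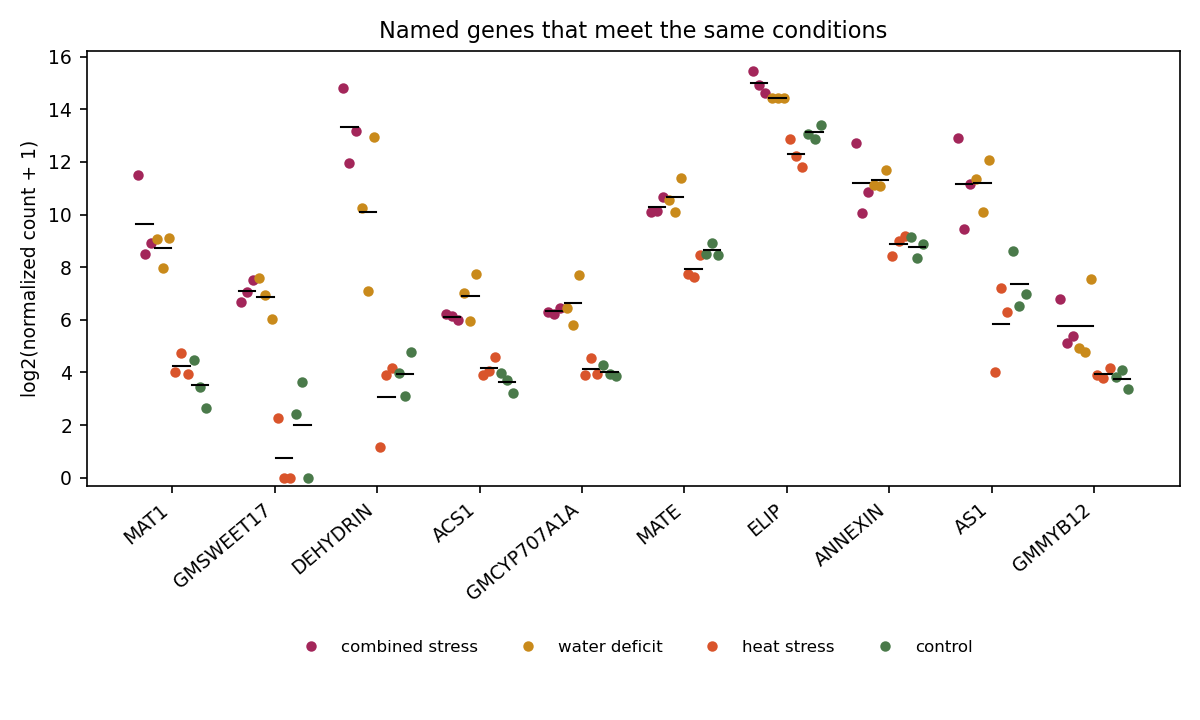
The 10 genes with a symbol that met the same numeric conditions, on a log2(normalized count + 1) axis, with a point per library, a bar at the mean of the 3 log2 values and groups in the order combined stress, water deficit, heat stress and control. Every gene separates the water-limited libraries from the watered ones; DEHYDRIN spans 137.3 to 7872 in water deficit and ELIP 21996 to 22288.

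Drought pathways were also counted by symbol, in lists drawn up with earlier results known. Genes were called with limma at an adjusted p under 0.05, adjusted over the 33119 genes whose mean reached 10. Of all these, 0.589% were called higher and 0.688% lower in water deficit than in control, and 2.38% higher and 2.83% lower in combined stress than in heat stress. At an unadjusted p under 0.05 in limma the same 4 shares were 7.37%, 6.42%, 9.91% and 11.7%. They were 0.441%, 0.537%, 2% and 2.72% by edgeR, and 3.27%, 2.58%, 4.93% and 6.68% by DESeq2. DEHYDRIN and GMSWEET17 are on the lists but met the selection conditions, so they are left out of the counts that follow, a choice made after seeing the data. MAT1 and GMMYB12 met the conditions too and are on no list, since the lists go by the start of a symbol. Of the other 14 measured dehydration proteins (late embryogenesis abundant and seed maturation symbols), limma called 0 higher or lower in water deficit than in control, edgeR called 0 and DESeq2 5 higher, and 6 were higher at an unadjusted p under 0.05. In combined stress against heat stress 4 of the 14 were called higher (PM27, PM35, LEA5 and PM16) and 0 lower, with 10 higher and 0 lower at an unadjusted p under 0.05, 4 higher by edgeR and 10 by DESeq2. The median log2 changes were 1.54 and 3.16, beside 0.02 and -0.01 over all genes tested. LEA-1 averaged 696.1 in combined stress and 2505 in water deficit, against 265.6 in heat stress and 577.1 in control, and was not called in water deficit (log2 change 1.99, SE 0.44, limma adjusted p 0.0536). Its 3 water deficit libraries (1719, 1743 and 4052) were all above control. Combined stress library 1 was at 1271, but libraries 2 and 3 (469.8 and 347.4) were below the control range of 556.8 to 607.7, so LEA-1 does not meet the conditions.

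Of the other 19 measured osmolyte and sugar genes (such as the SWEET sugar transporters), limma called 0 in water deficit against control, with 5 higher at an unadjusted p under 0.05, 0 by edgeR and 2 by DESeq2. It called 3 higher in combined stress than in heat stress (GMSWEET20, GMSWEET40 and GMSWEET41), and the medians were 0.36 and 0.72. Of 233 transcription factors, 2 were called higher and 8 lower in water deficit than in control, against 0.589% and 0.688% of all genes. In combined stress against heat stress 9 were higher and 13 lower, against 2.38% and 2.83% of all genes (medians 0.01 and -0.05). The same shares of all genes apply to the limma calls of the other lists. The shares given above for an unadjusted p, edgeR and DESeq2 apply to the counts of those kinds. Of 14 heat shock and BAG genes, none was higher and 1 was lower in water deficit than in control, and 3 were higher and none lower in combined stress than in heat stress (medians 0.03 and 1.60). For the 3 aquaporin symbols limma called 0 in either comparison (medians -0.55 and -0.34), with 1 higher and 1 lower in water deficit at an unadjusted p under 0.05, 0 calls by edgeR and 1 higher by DESeq2 in each comparison. The only symbol on the abscisic acid list was NCED2, named for the carotenoid-cleaving enzyme of abscisic acid synthesis. It had 5.0, 4.1 and 7.2 normalized counts in combined stress and 5.6, 6.4 and 0.9 in water deficit, against 30.3, 66.9 and 25.003 in heat stress and 13.2, 29.0 and 22.0 in control. It ran opposite to the 94 genes and was called lower in combined stress than in heat stress (log2 change -2.59, limma adjusted p 0.03998), but not in water deficit than in control (-2.24, limma adjusted p 0.127).

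How far the selected genes passed the gene-wide test in the contrasts that chose them is given for scale alone. In combined stress against heat stress 83 of the 94 were called higher, where 2.38% of all genes tested were. In water deficit against control 55 were called higher, against 0.589% of all genes, and in combined stress against control 76, against 6.56%. All 94 passed the filter on low values, which their lowest water-limited value of 20 guarantees. The 55 fell to between 11 and 15 when any single control library, water deficit library 1 or water deficit library 3 was left out. The share of all genes called higher fell too in these fits, to between 0.0513% and 0.106%. Without water deficit library 2 the count was 36 (0.399% of all genes). It rose to 66 without heat stress library 3 (1.09%) and to 64 without combined stress library 1 (1.29%). The 83 fell to 51 without heat stress library 1 (0.637% of all genes) and to 53 without combined stress library 3 (0.682%). It was 24 when the 6 libraries compared were fitted alone (0.257%) and 89 without water deficit library 3 (2.56%).

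A gene entered only if its water-limited libraries were higher both without and with heat. Across the 94 genes, the log2 change of combined stress over heat stress and that of water deficit over control had a Pearson r of 0.66 and a Spearman rho of 0.59. Over all 33119 genes tested, r was 0.44 and rho 0.36. These contrasts share no library, but both were used to choose the 94 genes, and genes are not independent replicates, so the coefficients are a description. The change with heat was larger than the change without it for 63 of the 94, a count whose share over all genes was not computed. The difference between the changes (the interaction) had a median of 0.25 and a range of -1.98 to 3.80 in the 94, beside a median of -0.04 over all genes tested. The highest value was that of LOC100790115, which had few or no reads in heat stress. Single libraries moved the median of the 94: it was 0.13 without combined stress library 1, 0.53 without combined stress library 2, 0.57 without water deficit library 3, 0.45 without control library 3, 0.15 without control library 1 and 0.37 without heat stress library 3. No member was called for the interaction by limma (0 of 94, where 0.0% of all genes were), 14 had an unadjusted p under 0.05, all of them positive (9.46% of all genes did, 4.25% on the positive side), edgeR called 0 and DESeq2 called 1, against 0.833% of all genes. Without heat stress library 3, limma called 7 members, against 4.78% of all genes. All 4 groups in the interaction were used to choose the 94 genes, so these counts are a description and not a test of them. The clause on combined stress had removed 2 genes of high combined stress level, so this distribution is trimmed.

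**Figure D4:**
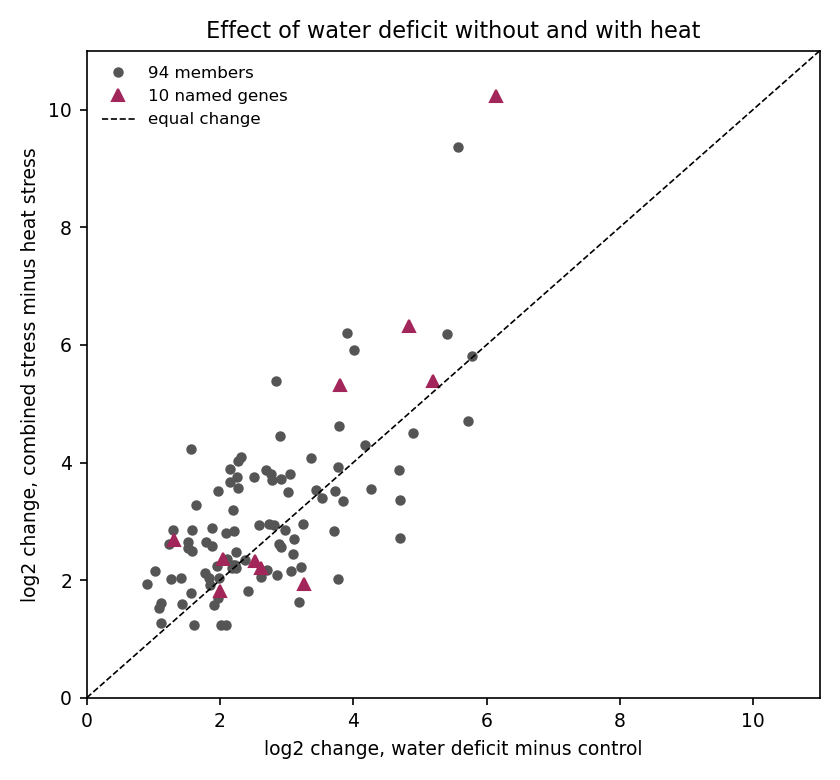
Each point is a gene, with the log2 change of combined stress minus heat stress on the vertical axis and of water deficit minus control on the horizontal axis; circles are the 94 genes, triangles the 10 genes with a symbol, and the dashed line marks equal change. 63 of the 94 circles lie above the line, and the circle farthest above it is LOC100790115 (9.37 against 5.58), which had few or no reads in heat stress.

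What heat did to these genes in watered plants is the comparison that the selection did not make, although it capped heat stress and control alike. The cap was set by each gene's own lowest water-limited value. A gene raised by heat past it could not enter, while a gene raised by heat but still below it could. No member was called higher in heat stress than in control and 2 were called lower, against 1.72% and 1.39% of all genes tested. At an unadjusted p under 0.05 limma had 2 members higher and 16 lower, together about the share of all genes (21.1%, with 10.7% higher and 10.4% lower). edgeR called 0 higher and 1 lower, against 1.87% and 1.07% of all genes, and DESeq2 0 higher and 4 lower, against 5.85% and 4.18%. The median log2 change was -0.28, beside -0.01 over all genes, and 31 of the 94 were above 0. It was -0.12 without heat stress library 1 and -0.39 without control library 3, and lay between these without any other single library. The 3 heat stress libraries were all above the 3 controls for 6 members and all below for 12, or 6.38% and 12.8%, against 13.5% and 13.3% of all genes.

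Both calls were for a lower level under heat. LOC100809181 had 29.0, 33.5 and 51.8 normalized counts in heat stress against 65.2, 187.4 and 113.0 in control, without overlap (log2 change -1.57, SE 0.37, limma adjusted p 0.0462). Under water limitation the same gene had 746.7, 415.1 and 401.8 in combined stress and 968.6, 779.9 and 800.3 in water deficit. LOC100814343 had 0, 10.2 and 6.3 in heat stress against 37.9, 35.0 and 26.1 in control (log2 change -2.96, SE 0.72, limma adjusted p 0.0494), and 263.5, 131.7 and 167.3 in combined stress with 251.9, 155.6 and 349.2 in water deficit. Neither call was firm: over the 22 alternative settings the adjusted p ran from 0.00216 to 0.167 for LOC100809181, which was lost in 14, and from 0.000712 to 0.154 for LOC100814343, which was lost in 15, and whose log2 change was -1.90 without heat stress library 1.

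Next in line were LOC100790115 (log2 change -2.45, SE 0.69, limma adjusted p 0.0776) and LOC100802013 (-1.61, SE 0.49, limma adjusted p 0.0930), the last with 44.1, 28.8 and 67.9 in heat stress against 154.2, 145.5 and 115.1 in control. The change of LOC100790115 rests on few reads, and with a pseudocount of 10 it was -0.74 (limma adjusted p 0.401). On the higher side the smallest p belonged to LOC102665703 (8.8, 5.6 and 6.3 in heat stress against 2.6, 3.8 and 1.0 in control, log2 change 1.24, limma adjusted p 0.175). It was followed by LOC100775376 (111.0, 83.6 and 96.4 against 76.7, 67.8 and 24.1, log2 change 0.93, limma adjusted p 0.229), LOC100815777 (1.56, limma adjusted p 0.252) and LOC102664140 (1.16, limma adjusted p 0.259).

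Heat stress library 3, the one with high LCL3, had a large part in these numbers. Without it, 12 members were called lower and 0 higher, against 7.14% and 7.17% of all genes. With combined stress library 1 left out as well, 14 were lower and 2 higher, against 10.7% and 10.5% of all genes. The 12 included LOC100799031 (log2 change -1.79, SE 0.26, limma adjusted p 0.00251), whose heat stress libraries 1 and 2 were at 1559 and 1815 and library 3 at 5693 against 5016 to 6654 in control. They also included LOC100306665 (log2 change -2.82, SE 0.51, limma adjusted p 0.00620), with 21.4, 41.8 and 244.7 in heat stress libraries 1 to 3 against 213.2, 187.4 and 257.3 in control, and LOC100790344 (-1.91, SE 0.27, limma adjusted p 0.00236). In all 3 genes heat stress library 3 lay within or above the control range while libraries 1 and 2 lay below it. These 3 were picked from the 12 after their values were seen. In others of the 12, such as LOC100809181, LOC100814343, LOC100790115 and LOC100802013, heat stress library 3 was also below every control library. The part of the clock state in these counts was not tested.

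In combined stress against water deficit the 94 genes had no common direction, and the selection had trimmed the upper end, so the counts are descriptive. The median log2 change was -0.02, beside -0.04 over all genes. It was -0.19 without combined stress library 1 and 0.33 without water deficit library 3. Mean combined stress was 0.171 to 4.15 times mean water deficit, with a median of 1.05. It was at least 1.5 times as high for 25 genes and at most 1/1.5 as high for 19, and 50 lay between. The share of all genes in each of these classes was not computed. limma called 3 higher and 1 lower (3.19% and 1.06%), against 5.87% and 6.87% of all genes. The combined stress libraries lay wholly above water deficit for 10 members and wholly below for 6 (10.6% and 6.38%), against 17.4% and 18.5%. The count of 3 higher fell to 1 without water deficit library 1 or 2 or combined stress library 3, against 3.15%, 2.74% and 1.78% of all genes. It reached 5 without heat stress library 3, against 9.22%. The count of 1 lower fell to 0 in 8 of the fits that left out a single library, against 1.94% to 6.39% of all genes. It reached 5 without combined stress library 1, against 9.19%.

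The 3 higher genes were LOC102667513 (mean ratio 3.92, log2 change 1.83, SE 0.44), LOC100801169 (332.7 ± 89.5 in combined stress against 156.3 ± 14.2 in water deficit (SD, n = 3 each), log2 change 1.05, SE 0.29) and LOC100306570 (3631 ± 328 against 1938 ± 344, log2 change 0.92, SE 0.20). The highest ratio belonged to LOC100812834 (4.15), whose values are given with the largest margins. LOC100792006, with a ratio of 3.40, had 126.4, 112.7 and 241.7 in combined stress against 28.9, 23.8 and 88.6 in water deficit, without overlap. Without combined stress library 1 the combined stress mean was 606.0 for LOC102667513, against 936.5 with it, and 1313 for LOC100812834, against 2071 with it. The gene called lower was LOC100816643, with 275.9, 138.4 and 141.7 in combined stress against 507.6, 320.4 and 2425 in water deficit (log2 change -2.06, SE 0.58), and its water deficit mean was 414.0 without library 3, against 1084 with it. It kept a combined stress level above heat stress (56.7, 66.0 and 46.4) and control (89.9, 80.0 and 70.1).

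**Figure D5:**
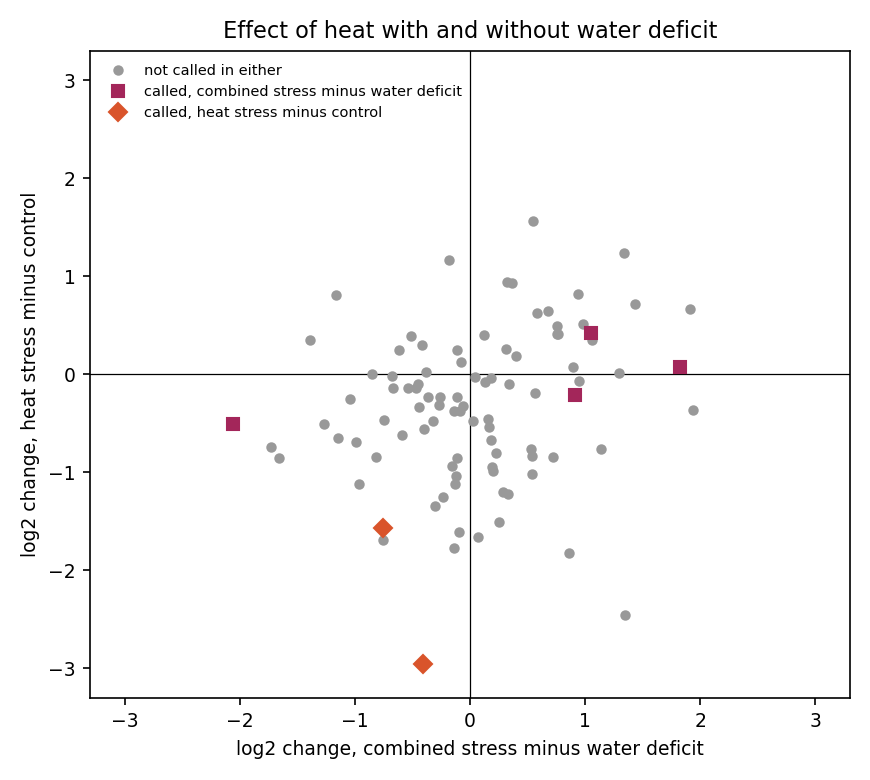
Each point is 1 of the 94 genes, with the log2 change of heat stress minus control on the vertical axis and of combined stress minus water deficit on the horizontal axis; squares and diamonds mark genes called by limma at an adjusted p under 0.05. The 2 diamonds, LOC100814343 at -2.96 and LOC100809181 at -1.57, lie below 0 on the vertical axis, and 63 of the 94 points are at or below 0 there.

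The genes varied more within groups than most. The median SD of a gene within a group, on the log2 scale, was 0.59 in combined stress and 0.53 in water deficit, against 0.62 in heat stress and 0.41 in control for the 94, and 0.35, 0.27, 0.37 and 0.25 for all genes tested. The variation had a common direction. Combined stress library 1 was the highest of its group for 69 of the 94 (73.4%, against 42.3% of all genes) and library 2 the lowest for 67 (71.3%, against 28.1%). Water deficit library 3 was the highest of its group for 67 (71.3%, against 39.1%) and library 2 the lowest for 70 (74.5%, against 30.0%). These shares describe the libraries and carry no test. For 48 genes both held at once, highest in combined stress library 1 and in water deficit library 3 (51.1%, against 19.0% of all genes). Combined stress library 1 is also the one with low LCL3 in its group, and whether the 2 go together was not tested.

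For some genes the spread was far wider in water deficit than in combined stress. LOC100527018 had 301.4, 163.8 and 2299 in water deficit, a 14.0-fold spread, but 159.4, 210.4 and 184.9 in combined stress, against 60.5, 61.3 and 23.2 in heat stress and 52.0, 22.9 and 34.5 in control. LOC106799532 had 968.6, 543.7 and 4998 in water deficit and 361.0, 693.4 and 742.8 in combined stress, and LOC100810724 had 49.5, 40.3 and 328.8 in water deficit and 78.5, 55.5 and 56.8 in combined stress. In each, water deficit library 3 alone was high, and it sets the low ratio of combined stress to water deficit of 0.201 for LOC100527018 and 0.276 for LOC106799532.

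Membership followed the same libraries. The lowest water-limited value, which decides whether a gene enters, was in water deficit library 2 for 35 genes and in combined stress library 2 for 32. Applied without water deficit library 2 the rule held 132 genes, without combined stress library 2 it held 122, and without heat stress library 3 it held 132. Leaving out any other single library gave 96 to 109. Of the 132 genes chosen without water deficit library 2, 94 (71.2%) were also members, that is, they met the rule with that library included too. The same share was 71.2% for heat stress library 3, 73.8% for combined stress library 2 and 86.1% to 93.8% for the others. Leaving out a library can only ease the conditions on lowest and highest values, so only the clause on combined stress could remove a member. Between 90 and 94 members stayed each time, which is largely built into the rule.

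Gene order in RefSeq placed 3 pairs of members within 5 protein-coding genes of each other. Only members matched by symbol to a protein-coding gene were placed. The 3 matched by gene ID, the 1 not matched and the 2 long non-coding RNAs were left out. How often other genes lie this close was not computed. LOC100792006 and LOC100800652 were 2 positions apart, LOC100801169 and LOC100799559 were 3 apart, and LOC100526849 and LOC100793822 were 4 apart. In the first pair, LOC100792006 had no overlap between combined stress and water deficit, and LOC100800652 had 1000, 554.3 and 471.5 in combined stress against 767.0, 573.9 and 2389 in water deficit, with overlap and a water deficit mean that was 670.5 without library 3 and 1243 with it. LOC100799559, the neighbour of LOC100801169, had 546.9 ± 11.98 in combined stress and 697.8 ± 170 in water deficit (SD, n = 3 each), against 332.7 ± 89.5 and 156.3 ± 14.2 for LOC100801169. Differences between neighbours were not tested. Soybean has many near-identical gene copies, and how reads were divided among them is not given in the sources used here, so values of single genes are uncertain to that extent.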

How the data were processed

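Leaf RNA of 12 libraries was sequenced, and the deposited table holds a normalized count (signal) per gene and library. Per the submitters' processing notes, cutadapt 1.18, FastQC 0.11.7, STAR 2.4.0.1 and DESeq2 1.20.0 were used, with no role stated. The build, annotation and counting tool are not given in the sources used here. In the deposited signal, 100% of positive values were whole multiples of 1 read (tolerance 0.001), so reads were recovered and run as an alternative. No column lacked a sample (0 unused).

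The 94 genes, lists and tests were chosen with earlier results of these data known. Genes with a mean of at least 10 (33119) were fitted with limma 3.58.1 (R 4.3.3) on log2(value + 1), 4 groups in 1 fit, variance trend, two-sided, Benjamini-Hochberg over all genes. Changes on this scale are understated for low genes. Genes were named by rank in margin, mean counts, heat effect, ratio of combined stress to water deficit, or spread, and where annotated. LOC100804221, the heat genes called without heat stress library 3, neighbours and the list examples were picked after their values were seen. The fit was tried on simulated counts with changes in heat stress alone, alike in all its libraries. Single libraries that stand apart were not simulated. Functions for most LOC genes and sequences were not used here. Alternatives were edgeR 4.0.16, DESeq2 1.42.0, other scalings, filters and left-out libraries. At most 3 reads in each library of a group was taken as its floor, which covers counting error only.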

Additional observations from a re-analysis of the deposited data

How the results depend on the processing

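The number of genes that meet the rule was 184 with the smallest margin tried (below 1.5), 42 with 2 and 18 with 3, and 61 with a lowest value of 100. It ran from 96 to 132 when single libraries were left out and was 149 without heat stress library 3 and combined stress library 1, a pair chosen after seeing the data. Percentages in brackets below are the shares of all genes called in the same fits. In heat stress against control, members called higher were 0 in all fits without a single library (0.275% to 7.17%). They were 1 after quantile normalization (1.8%) and 2 without that pair (10.5%). Members called lower, 2 in the fit reported, ran from 0 to 12 over the left-out libraries (0.139% to 7.14%). They were 1 with a pseudocount of 10, a mean of at least 50, the same total per library, quantile normalization or edgeR (1.07% to 1.55%). They were 0 without a filter, without a variance trend or with only the 6 libraries compared (0.38% to 1.11%), 4 with DESeq2 (4.18%) and 14 without the pair (10.7%). In combined stress against water deficit, members called higher (3) ran from 1 to 5 over the left-out libraries (1.78% to 9.22%). They were 5 with a pseudocount of 10 (5.95%) and 8 with DESeq2 (10.6%). Members called lower (1) ran from 0 to 5 (1.94% to 10.3%). They were 2 with a pseudocount of 10 (7.08%) or edgeR (6.25%), 0 without a variance trend (6.16%), 6 with DESeq2 (10.7%) and 10 without the pair (14.8%). Members called in water deficit against control (55) ran from 11 to 66 (0.0906% to 2.66%), and were 89 with DESeq2 (5.85%) and 84 without the pair (6.11%). Those called in combined stress against heat stress (83) ran from 51 to 89 (1.15% to 20.7%) and were 24 with only the 6 libraries compared (0.383%). For the interaction (0), the counts ran from 0 to 7 (0% to 4.78%), with 1 by DESeq2 (0.833%) and 15 without the pair (12.6%). The cause of these shifts was not tested. With the same total per library the rule held 103 genes, 86 of them among the 94. The window for promoter motifs was not run, since no promoter sequences were used here. No paired analysis was possible because the labels give no replicate number that groups share. Depth limits genes near the floor: 3 members had at most 3 reads in every control library and 3 in every heat stress library.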
